A study of Arabidopsis thaliana with 8 samples.

Results

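*TAS3* (AT3G17185) and the 2 genes of its trigger miRNA, *MIR390a* (AT2G38325) and *MIR390b* (AT5G58465), were followed through sRNA libraries of *Arabidopsis* seedlings with and without functional *HOT3*, the gene for the translation initiation factor eIF5B1. The members were the 15 windows of 100 bp that touch these 3 genes, out of 1196681 windows in all, found by position. *TAS3* has 11 windows and each miRNA gene has 2. The study asked whether loss of HOT3, which is needed for 18S rRNA maturation, sets off production of siRNAs from rRNA. On northern blots it also probed a *TAS3* siRNA as a control and miR390 for comparison. For each of 8 libraries, its data give read numbers in each window, separately for the lengths between 18 nt and 26 nt.

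All plants were of the Col-0 accession, were grown in long days and were harvested as seedlings at 18 days. Each genotype had 2 libraries. WT carried no mutation, *hot3-2* and *hot3-3* each carried a T-DNA insertion in *HOT3*, and *HOT3-EYFP* was *hot3-2* with a transgene of *HOT3* fused to EYFP under the *HOT3* promoter. The study's text speaks of *HOT3-EYFP* as a single complementation line and of independent replicates. It does not say whether the libraries of a genotype came from separate pools of plants, so a *p* below measures the spread between these libraries only. The growth temperature is 23 °C per the labels, and the methods text differs from them by a degree.

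*TAS3* is a noncoding RNA. In the established pathway, miR390 guides AGO7 to 2 sites in it, a cut at the 3′ site opens the RNA to RDR6 and SGS3, which make it double-stranded, and DCL4 then slices it into phased 21-nt siRNAs called tasiRNAs. A pair of these, known as tasiR-ARF, direct silencing of *ARF2*, *ARF3* and *ARF4*, auxin response factors that act in leaf polarity and in the change from juvenile to adult leaves. The miRNA itself is cut by DCL1 from hairpins, in which the 5p arm carries miR390 and the 3p arm its partner strand.

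The sequences of both arms are shown because the files cannot tell the 2 genes apart by the 5p arm. They were read from the TAIR10.1 assembly of RefSeq, 5′ to 3′, with the seed (bases 2 to 8) of the 5p arm in capitals.
miR390a-5p: aAGCUCAGgagggauagcgcc
miR390b-5p: aAGCUCAGgagggauagcgcc
miR390a-3p: cgcuauccauccugaguuuca
miR390b-3p: cgcuauccauccugaguucc
The 5p sequences lie at chr2:16061971-16061991 and chr5:23636961-23636981 on the plus strand and are identical, so a read of this sequence has 2 exact matches in the genome. The 3p sequences, at chr2:16062023-16062043 and chr5:23637034-23637053, share their leading 18 bases, and each has a single exact match. The arms of a hairpin start in different windows, which allowed the 5p and 3p windows to be counted apart.

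The sites that miR390 pairs with in *TAS3* are shown with bases in Watson-Crick pairs in capitals and other bases, G:U pairs included, in lower case. They lie on the plus strand of chromosome 3.
5′ miR390 site: GGtGtTATCCtatCTGAGCTT
3′ miR390 site: ttgtCTATCCCTCCTGAGCTa
The 5′ site lies at chr3:5862099-5862119 and the 3′ site at chr3:5862343-5862363, 244 bases further on. Each has 5 bases outside Watson-Crick pairs, of which 4 are G:U pairs at the 5′ site and 0 at the 3′ site. At the 5′ site the 5 bases include those opposite positions 9, 10 and 11 of miR390, counted from its 5′ end. At the 3′ site, positions 2 to 13 are all paired. Any other stretch of *TAS3* had at least 10 bases outside Watson-Crick pairs.

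A cut opposite positions 10 and 11 of miR390 at the 3′ site gives a register of 11 phased 21-mers between the sites. The pair below carries tasiR-ARF and is shown because its windows were the most abundant ones of *TAS3*. Capitals mark the phased 21-mer, and 1 flanking base is printed on each side, since tasiR-ARF as commonly written starts a single base further 5′.
5′D7(+): tTCTTGACCTTGTAAGACCCCAt
5′D8(+): tTCTTGACCTTGTAAGGCCTTTt
They lie at chr3:5862207-5862227 and chr3:5862186-5862206, begin with the same 15 bases, and each matches the genome once. The windows that hold their starts, chr3:5862200-5862299 and chr3:5862100-5862199, are called the tasiR-ARF windows here, although their counts also hold other phased 21-mers and reads of both strands. Of the 11 phased 21-mers, 5 start in the window of 5′D7(+), 4 in that of 5′D8(+) and 2 in that of the 3′ site. The files count reads by window and length, so no single siRNA was counted by its sequence.

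Total counts per library ranged from 6793502 to 8210328 (median 7341130.5), of which 816672 to 999484 were 21-nt reads. Reads from rDNA made up 30.4% to 49.5% of the 21-nt counts, and this share differed by genotype. It was 38.4% and 38.8% for WT, 30.4% and 30.7% for *hot3-2*, 36.3% and 36.5% for *hot3-3*, and 49.0% and 49.5% for *HOT3-EYFP*. Levels are therefore given as CPM, counts per 1000000 counts of the 21-nt class after TMM. That scaling assumes most windows do not differ. Levels were compared by edgeR's quasi-likelihood test, with 4827 features in 1 fit at 21 nt, and a call needed a difference of 2-fold or more together with an adjusted P (Benjamini-Hochberg) below 0.01. sRNA counts at *HOT3* itself were 17 to 29 in the 6 libraries without the transgene and 535 and 471 in *HOT3-EYFP*, which set the transgenic libraries apart but not the alleles from WT.

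*TAS3* spans chr3:5861491-5862437 on the plus strand and is annotated as a noncoding RNA gene. Its sRNAs came from 4 neighbouring windows. Of its 11 windows, 4 held no read in any library, and 3 held 13, 1 and 1 reads of any length over all 8 libraries. The window called that of the 5′ site, chr3:5862000-5862099, held 1561 reads of all lengths. It holds only the leading base of the site, and the rest of the site lies in the window of 5′D8(+). This takes each window to start at the coordinate given, which was not told apart from a start a single base further on. The 2 tasiR-ARF windows held 10897 and 19499 reads, and the window of the 3′ site, chr3:5862300-5862399, held 4860. The 6 windows that flank the 3 genes held 0 reads. The windows that overlap the intron of transcript NR_143942.1 (5861606 to 5861997) held 1 read in all.

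**Figure D1:**
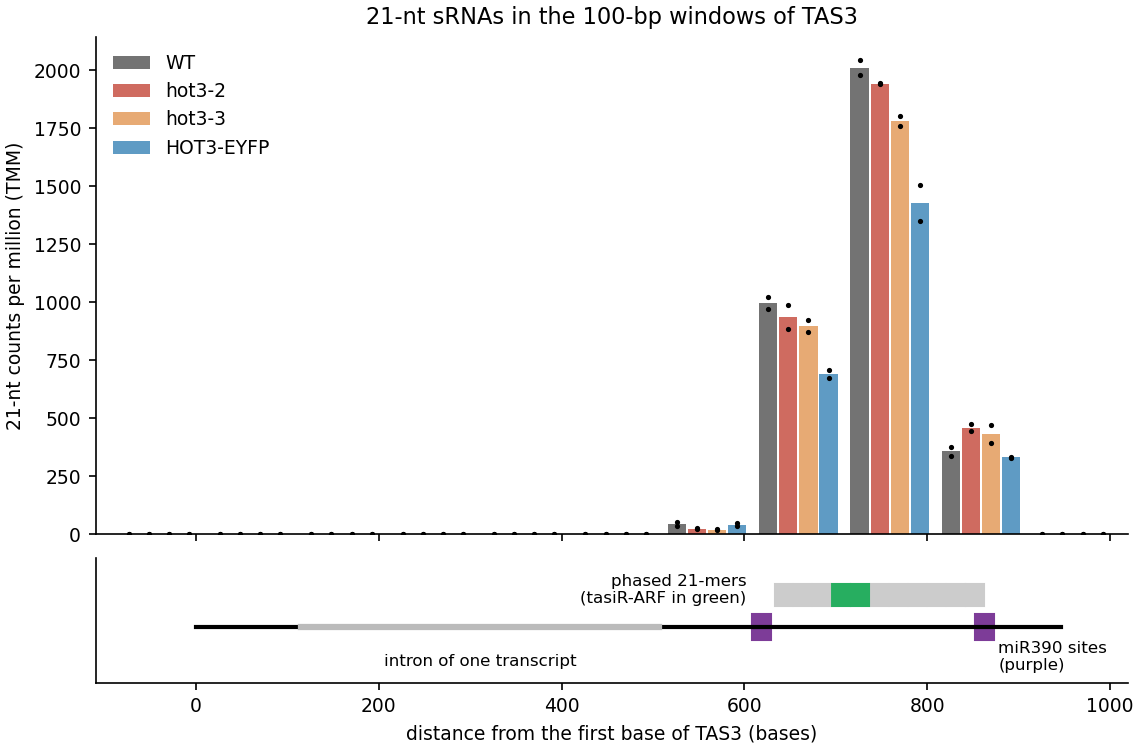
21-nt sRNAs in the windows of *TAS3*, as TMM-normalised CPM, plotted by distance from the first base of the gene. Bars are the mean of 2 libraries and dots the libraries. The lower track shows the miR390 sites and the phased 21-mers, and the tallest window, with means of 1429 to 2011 CPM, holds 5′D7(+).

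Within *TAS3*, the window of 5′D7(+) held 57.7% of the 21-nt reads, that of 5′D8(+) held 28.4%, that of the 3′ site 12.9% and that of the 5′ site 1.01%. Among nuclear windows outside rDNA, ranked by 21-nt counts in each library, the 5′D7(+) window ranked between 28 and 32 and the 5′D8(+) window between 44 and 56. All 4 genotypes had both windows among their most abundant ones.

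At 21 nt, *TAS3* reached 3386 and 3432 CPM for WT, 3431 and 3305 for *hot3-2*, 3179 and 3090 for *hot3-3*, and 2390 and 2603 for *HOT3-EYFP*. The *hot3-2* libraries lay beside WT, those of *hot3-3* just below, and both *HOT3-EYFP* libraries below all other 6. In means the levels were 3409 ± 33 (SD, n = 2) for WT, 3368 ± 89 (SD, n = 2) for *hot3-2*, 3134 ± 63 (SD, n = 2) for *hot3-3* and 2496 ± 150 (SD, n = 2) for *HOT3-EYFP*. WT and *hot3-2*, neighbours in this order, did not differ beyond their spread.

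*TAS3* was not called changed in any comparison, since no difference reached 2-fold. Against WT its log2 fold change was -0.02 (SE 0.051) for *hot3-2* and -0.12 (SE 0.052) for *hot3-3*, with edgeR adjusted P of 0.876 and 0.181. The largest difference was that of the complementation line, whose log2 fold change was -0.45 (SE 0.052, adjusted P = 0.00043) against WT and -0.43 (SE 0.052, adjusted P = 0.00019) against *hot3-2* by the same edgeR fit. Taken as a group, the alleles exceeded plants with functional HOT3 (WT and *HOT3-EYFP*) by 0.16 (SE 0.036, edgeR adjusted P = 0.0121), although all 4 allele libraries lay within the range of the other 4, from 2390 to 3432 CPM. That difference rested on the library size, with 0.01 (edgeR adjusted P = 0.831) from counts outside rDNA and organelles and 0.43 (edgeR adjusted P = 1.13e-05) from all counts of the library, and DESeq2 gave 0.13 (adjusted P = 0.431). Leaving out 1 library gave 0.10 to 0.19, with edgeR adjusted P up to 0.135.

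miR390, the trigger, was lower in both alleles than in WT. Its 5p windows at 21 nt held 642 CPM on average for WT, against 391 for *hot3-2*, 412 for *hot3-3* and 472 for *HOT3-EYFP*. The 4 allele libraries ranged from 379 to 444 CPM and the other 4 from 469 to 642, with no overlap on this scale. Per 1000000 counts of all lengths, without TMM, both *HOT3-EYFP* libraries (49.5 and 49.1) were below all 4 allele libraries (50.5 to 60.1), and WT (82.1 and 82.7) stayed above them. For both genes and both arms summed, the libraries gave 756 and 807 CPM for WT, 522 and 474 for *hot3-2*, 486 and 543 for *hot3-3*, and 550 and 595 for *HOT3-EYFP*. All 6 other libraries were lower than both WT libraries. The means were 781 ± 36 (SD, n = 2) CPM for WT, 573 ± 32 (SD, n = 2) for *HOT3-EYFP*, 514 ± 40 (SD, n = 2) for *hot3-3* and 498 ± 34 (SD, n = 2) for *hot3-2*, and the last pair did not differ beyond its spread.

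Against WT, the log2 fold change of *MIR390a* plus *MIR390b* was -0.65 (SE 0.11) for *hot3-2* and -0.60 (SE 0.11) for *hot3-3*, with edgeR adjusted P of 0.0021 and 0.0038. In *HOT3-EYFP* it was -0.45 (SE 0.11, edgeR adjusted P = 0.0441), but -0.18 (edgeR adjusted P = 0.422) with counts outside rDNA and organelles as library size and -0.75 (edgeR adjusted P = 0.0029) with all counts. *HOT3-EYFP* exceeded *hot3-2* by only 0.20 (SE 0.11, edgeR adjusted P = 0.247). The sign of that last value depended on the library size. Both alleles against plants with functional HOT3 gave -0.40 (SE 0.076, edgeR adjusted P = 0.0035). With all counts as library size this was -0.13 (edgeR adjusted P = 0.223), and for the 5p windows alone it went from -0.46 (edgeR adjusted P = 0.0023) to -0.18 (edgeR adjusted P = 0.115). None of the 5 comparisons reached 2-fold, so the sum was not called changed.

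In the 5p windows the log2 fold changes were -0.71 (SE 0.11) for *hot3-2* and -0.64 (SE 0.11) for *hot3-3* against WT, with edgeR adjusted P of 0.0016 and 0.0037. The 3p windows, with 80.9 to 166 CPM over the 8 libraries, gave -0.39 (SE 0.27) and -0.45 (SE 0.27), with edgeR adjusted P of 0.421 and 0.348. Leaving out 1 library moved them to between -0.65 and -0.11 and between -0.72 and -0.18, respectively. WT libraries alone differed in the 3p windows by 114 against 166 CPM. Whether the arms differed in their change was not tested.

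**Figure D2:**
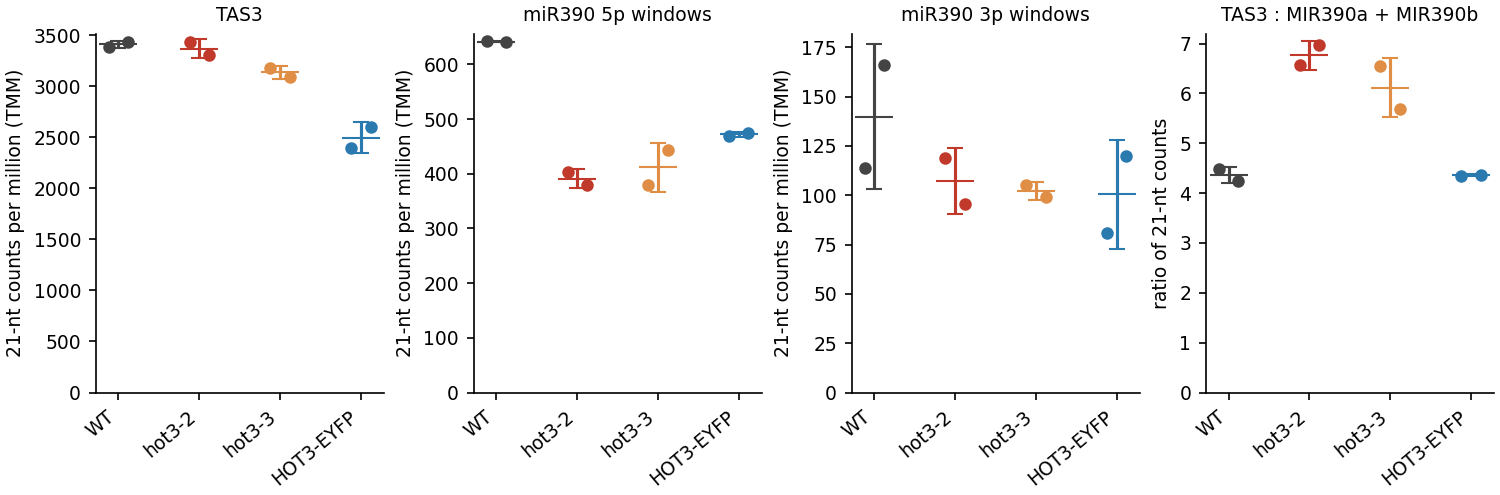
Levels at 21 nt in each library (dots) with the mean and SD of each genotype, for *TAS3*, the miR390 5p and 3p windows (TMM-normalised CPM) and the ratio of *TAS3* to *MIR390a* plus *MIR390b* counts. Ratios of the 4 allele libraries, 5.69 to 6.97, lie above those of the other 4, 4.25 to 4.48.

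Split by gene, *MIR390a* gave 525 and 610 CPM for WT, 411 and 352 for *hot3-2*, 383 and 451 for *hot3-3*, and 447 and 449 for *HOT3-EYFP*. *MIR390b* gave 231 and 197 CPM for WT, 111 and 122 for *hot3-2*, 102 and 91.1 for *hot3-3*, and 103 and 146 for *HOT3-EYFP*. Both genes were lower in the 6 other libraries than in WT. *MIR390b* in *hot3-3* against WT had a log2 fold change of -1.15 (SE 0.23, edgeR adjusted P = 0.0075) and was called changed. Leaving out any of 5 libraries (either WT library, either *hot3-3* library or *hot3-2* replicate 2) ended this call, with log2 fold changes from -1.28 to -1.05 and edgeR adjusted P up to 0.0707.

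Since the 5p strand of both genes has the same sequence, the division of its reads between the genes rests on how reads with 2 matches were placed. The sources used here do not state this for the genome. *MIR390a* took 69.4% to 83.2% of the 21-nt reads of both genes. Wilson 95% intervals of this share, which cover counting error only, extended up to 4.05 percentage points on each side. The share was 78.8% on average in the alleles and 75.4% in plants with functional HOT3 (two-sided exact permutation test, *p* = 0.314).

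Across the 15 windows, 8 passed the filter on low counts and were tested at 21 nt, and 7 windows of *TAS3* did not pass it. In *hot3-2* against WT, 0 of the 8 were called, where 7.13% of all features were. In *hot3-3* against WT 1 of the 8 was called, beside 5.82% of all features: the 5p window of *MIR390b* (chr5:23636900-23636999), with a log2 fold change of -1.11 (SE 0.22, edgeR adjusted P = 0.0066). It lost the call without the same 5 libraries as *MIR390b*, which it is part of, and the count was then 0. In *HOT3-EYFP* against WT 0 were called (0.808% of all features), in *HOT3-EYFP* against *hot3-2* 0 (10.2%), and in the alleles against plants with functional HOT3 0 (10.9%).

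With an adjusted P under 0.05 and no fold limit, the counts were 2, 1, 2, 3 and 4 of the 8 in the same order, where 14.6%, 12.7%, 4.87%, 18.2% and 22.6% of all features passed. At an unadjusted P under 0.05, edgeR gave 4, 5, 4, 4 and 6 of the 8 windows, beside 27.1%, 24.6%, 16.4%, 30.2% and 35.0% of all features. DESeq2 with the limits of a call gave 0, 1, 0, 0 and 0, beside 332, 268, 42, 437 and 436 of all 4827 features. The median log2 fold change of the 8 windows was -0.48 for *hot3-2* and -0.39 for *hot3-3* against WT, where the median of all features was 0.04 and 0.01. It was -0.43 in *HOT3-EYFP* against WT, beside 0.02, and -0.24 in *HOT3-EYFP* against *hot3-2*, beside -0.11. For the alleles against functional HOT3 it was -0.27, beside 0.07. The windows belong to different genes and are not replicates of a single change. For *hot3-2* against WT, the windows of 5′D7(+) and 5′D8(+) gave -0.05 and -0.09. That of the 3′ site gave 0.36 and that of the 5′ site -0.79. The 5p windows gave -0.64 (*MIR390a*) and -0.90 (*MIR390b*).

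The windows inside *TAS3* were also compared one by one. The window of the 3′ site held 337 to 379 CPM for WT, 445 to 475 for *hot3-2*, 396 to 473 for *hot3-3* and 331 to 335 for *HOT3-EYFP*. Its 4 allele libraries lay above the other 4, with a log2 difference of 0.37 (SE 0.093, edgeR adjusted P = 0.0161). The window of the 5′ site went the other way, from 17.6 to 25.7 CPM in the alleles and from 34.5 to 51.4 in plants with functional HOT3, a log2 difference of -0.93 (SE 0.23, edgeR adjusted P = 0.0151). This is a window of few reads, with 18 to 48 reads of 21 nt per library. By the window coordinates used here, it holds only the leading base of the site. For the tasiR-ARF windows summed the log2 difference was 0.14 (SE 0.038, edgeR adjusted P = 0.0269), and the ranges overlapped. None of these 3 differences passed the limits of a call.

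**Figure D3:**
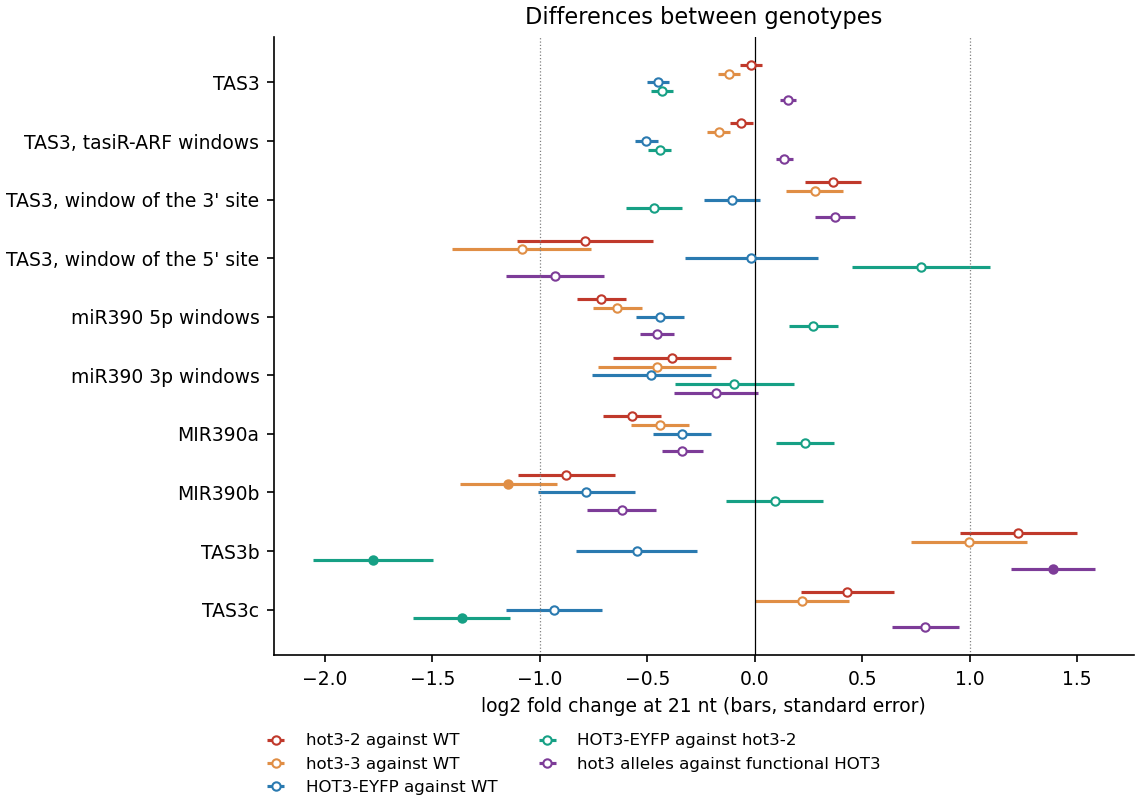
Log2 fold changes at 21 nt from edgeR with standard errors, for *TAS3*, parts of it, the miR390 windows and genes, and the related *TAS3b* and *TAS3c*. Filled points passed both limits of a call, dotted lines mark 2-fold, and of the members *MIR390b* in *hot3-3* against WT, at -1.15, is filled.

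The tasiR-ARF windows held 89.0% and 87.5% of the *TAS3* 21-nt reads for WT, 85.4% and 85.7% for *hot3-2*, 84.4% and 86.5% for *hot3-3*, and 84.7% and 85.1% for *HOT3-EYFP*. WT was highest and the other genotypes overlapped. The means of the alleles and of plants with functional HOT3 were 85.5% and 86.6% (two-sided exact permutation test, *p* = 0.4). Wilson 95% intervals extended up to 1.61 percentage points on each side.

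The ratio of product to trigger genes needs no library size, because both are counted in the same library. The sum for the trigger genes holds both arms, and the 3p windows gave 99 of its 657 and 155 of its 754 reads in WT. In 21-nt counts, *TAS3* had 4.48 and 4.25 reads for each *MIR390a* or *MIR390b* read for WT, 6.56 and 6.97 for *hot3-2*, 6.54 and 5.69 for *hot3-3*, and 4.34 and 4.37 for *HOT3-EYFP*. Every allele library was above every library with functional HOT3, and the complementation line was at the level of WT. On the log2 scale, with 0.5 added to counts, the means were 2.68 in the alleles and 2.12 in plants with functional HOT3, a difference of 0.56.

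A two-sided exact permutation test of these 4 libraries against 4 gave *p* = 0.0286, the smallest *p* it can give. Adjusted over the 4 measures tested in this way (Benjamini-Hochberg) it was 0.114, above 0.05. The permutation treats the 2 libraries of a genotype as independent. Leaving out 1 library at a time gave differences between 0.52 and 0.62. In *hot3-2* and *hot3-3* the ratio was higher beside fewer miR390 reads and *TAS3* levels near WT. In *HOT3-EYFP* the WT ratio came with lower levels of both.

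Reads of 21 nt made up most of the *TAS3* reads in all 8 libraries. Their share was 66.2% and 68.6% for WT, 63.4% and 63.5% for *hot3-2*, 63.5% and 62.7% for *hot3-3*, and 61.3% and 64.4% for *HOT3-EYFP*. WT was highest, and the alleles lay within the range of *HOT3-EYFP*. The means of the alleles and of plants with functional HOT3 were 63.3% and 65.1% (two-sided exact permutation test, *p* = 0.314), and Wilson 95% intervals extended up to 1.73 points on each side. For every 21-nt read, *TAS3* had 0.158 reads of 20 nt for WT, 0.199 for *hot3-2*, 0.216 for *hot3-3* and 0.193 for *HOT3-EYFP*. The same ratio over all nuclear windows outside rDNA was 0.435, 0.530, 0.565 and 0.544, in the same order of genotypes, and its part in the *TAS3* values was not tested.

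The window of the 5′ site, which by the coordinates used here holds only the leading base of the site, had another length profile. Only 15.3% of its reads were 21 nt, and 26 nt, the longest class counted, was the most frequent with 430 of 1561 reads. The 26-nt share was 18.0% on average for WT, 30.2% for *hot3-2*, 35.0% for *hot3-3* and 25.6% for *HOT3-EYFP*. Summed over all lengths, the reads of this window differed little, with a log2 difference of 0.01 (SE 0.10, edgeR adjusted P = 0.985) for the alleles against functional HOT3.

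The miR390 arms also had their own lengths. In the 5p windows 87.2% (*MIR390a*) and 87.3% (*MIR390b*) of reads were 21 nt, the annotated length of the 5p strand. The 3p window of *MIR390a* held 50.8% of 21 nt and 41.4% of 20 nt, and that of *MIR390b* 21.9% of 21 nt and 55.1% of 20 nt. The annotated 3p strands are 21 nt and 20 nt long, respectively. Hence a count at 21 nt alone leaves out most 3p reads of *MIR390b*, of which 515 were found at all lengths and 113 at 21 nt.

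**Figure D4:**
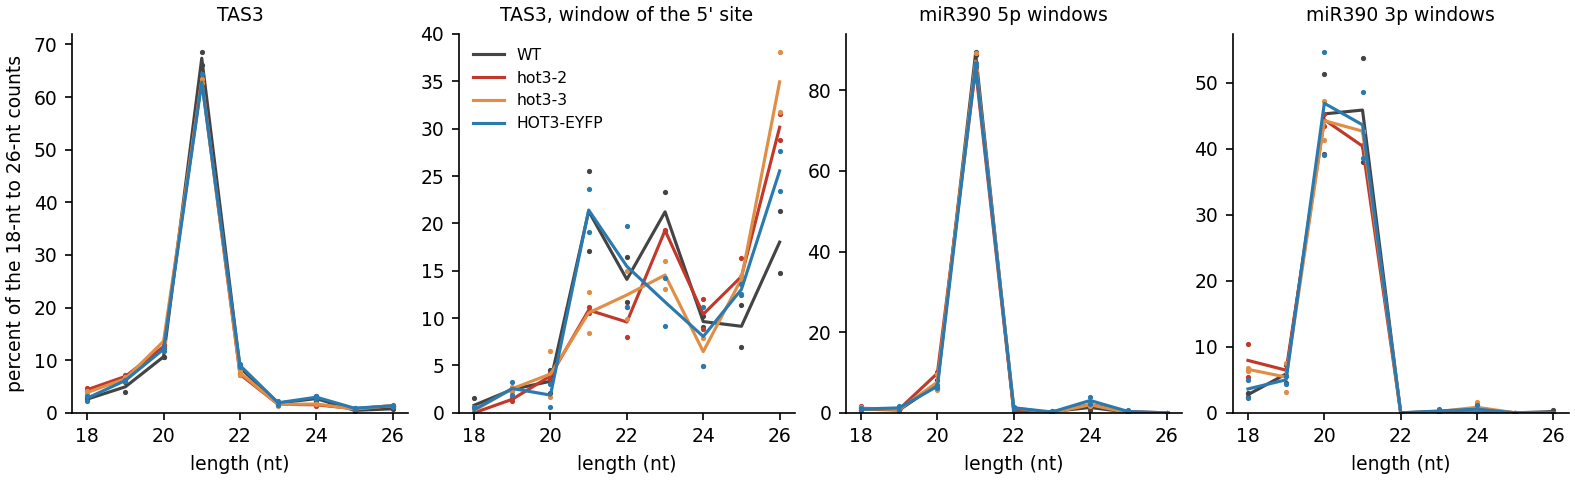
Share of each read length, from 18 nt to 26 nt, in *TAS3*, its window of the 5′ site and the miR390 5p and 3p windows. By the coordinates used here, the window of the 5′ site holds only the leading base of that site. Lines are genotype means and dots libraries. 21 nt stands out in *TAS3* and the 5p windows, 20 nt and 21 nt are both frequent in the 3p windows, and 26 nt has a mean of 35.0% in the window of the 5′ site for *hot3-3*.

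In the other length classes, *TAS3* at 22 nt had log2 fold changes of -0.26 (SE 0.12) for *hot3-2* and -0.23 (SE 0.12) for *hot3-3* against WT, with edgeR adjusted P of 0.220 and 0.321. At 24 nt they were -0.57 (SE 0.22) and -0.50 (SE 0.22), with edgeR adjusted P of 0.189 and 0.262. With all lengths summed, *TAS3* gave 0.05 and -0.01 and *MIR390a* plus *MIR390b* -0.52 and -0.51, the latter with edgeR adjusted P of 0.0258 and 0.0310. No member was called changed at these lengths in a sum over its windows.

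Of 20 other genes of the tasiRNA pathways, 12 passed the filter at 21 nt. For the alleles against functional HOT3, 4 of the 12 rose, 0 fell and 8 were not called, beside the 10.9% called among all features. Those that rose were *TAS3b*, *TAS2*, *TAS4* and *MIR173*, the miRNA that triggers siRNAs from *TAS1* and *TAS2* transcripts. Against WT, 3 of the 12 were called higher for *hot3-2* (7.13% of all features called), 2 for *hot3-3* (5.82%) and 0 for *HOT3-EYFP* (0.808%). None was called lower. Differences under 2-fold are not counted here. They include *TAS1C*, with log2 fold changes of -0.58 for *hot3-2*, -0.84 for *hot3-3* and -0.66 for *HOT3-EYFP* against WT. Their edgeR adjusted P were 1.5e-07, 1.5e-08 and 2.8e-07. In the other direction they include *TAS2* in *hot3-3*, at 0.96 (edgeR adjusted P = 7.2e-09). In *HOT3-EYFP* against *hot3-2*, 5 of the 12 were called lower and none higher (10.2% of all features called). These counts, and the medians below, used TMM. They were not repeated under other library sizes, on which levels in *HOT3-EYFP* depended. Median log2 fold changes of the 12 were 0.32, 0.09, -0.45 and -1.16 in these 4 comparisons and 0.63 for the alleles against plants with functional HOT3, where all features had 0.07.

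*TAS3b* (AT5G49615) is another locus of the *TAS3* family. It gave 58.7 and 50.3 CPM for WT, 135 and 120 for *hot3-2*, 100 and 118 for *hot3-3*, and 45.1 and 28.9 for *HOT3-EYFP*. Allele libraries did not overlap the others, with a log2 difference of 1.39 (SE 0.19, edgeR adjusted P = 0.00049). *TAS3c* (AT5G57735) ranged from 124 to 161 CPM in the alleles and from 50.9 to 113 in the others, and its log2 difference of 0.79 (SE 0.16, edgeR adjusted P = 0.0045) was under 2-fold. The best match to the miR390 target in each of these loci has 4 mismatches. Against *hot3-2*, *HOT3-EYFP* was lower by -1.78 (SE 0.28) in *TAS3b* and -1.36 (SE 0.22) in *TAS3c*, with edgeR adjusted P of 0.0013 and 0.0018, and both were called.

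The targets of tasiR-ARF had few sRNAs of their own. *ARF2* gave 8.94 to 16.3 CPM in the alleles and 16.5 to 21.9 in the other libraries (log2 difference -0.64, SE 0.25, edgeR adjusted P = 0.103). *ARF4* gave 7.94 to 25.7 and 16.5 to 41.6 CPM (log2 difference -0.93, SE 0.31, edgeR adjusted P = 0.0622), and *ARF3* did not pass the filter. *AGO7*, *RDR6*, *SGS3* and *DCL4*, which act on *TAS3* RNA, did not pass it either. sRNA counts at these genes do not measure their mRNAs.

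Among 920 annotated nuclear genes with a mean of at least 20 CPM at 21 nt over the 8 libraries, those closest to *TAS3* in pattern over the 8 libraries, by Pearson's *r* of log2(CPM + 1), were *MIR400* (0.965), AT1G32583 (0.964), which shares its window with *MIR400*, *TAS1B* (0.960), *MIR836* (0.953) and *TAS1A* (0.948). *TAS1A* and *TAS1B* are precursors of other tasiRNAs, cut by miR173. Closest to *MIR390a* plus *MIR390b* were *MIR472* (0.980), AT1G12290 (0.971), which overlaps it, *MIR166a* (0.965), the tRNA gene AT1G01270 (0.962) and *MIR825* (0.961). These values describe libraries that share 4 genotypes and 1 scaling. With total counts as library size, 2 of the 5 genes closest to *MIR390a* plus *MIR390b* were among the 5 closest again.

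The levels depended on the library size. With all counts of the library in place of TMM, the log2 fold change of *TAS3* was 0.19 for *hot3-2*, -0.08 for *hot3-3* and -0.75 in *HOT3-EYFP* against WT, and -0.94 in *HOT3-EYFP* against *hot3-2*. The median of all features moved as well, from 0.04 to 0.24 in *hot3-2*, from 0.02 to -0.27 in *HOT3-EYFP* against WT, from -0.11 to -0.60 in *HOT3-EYFP* against *hot3-2* and from 0.07 to 0.34 for the alleles against functional HOT3. With only counts outside rDNA, chloroplast and mitochondrion, *HOT3-EYFP* differed from WT in *TAS3* by -0.18 (edgeR adjusted P = 0.0853), where the median of all features was 0.29. The lower *TAS3* of *HOT3-EYFP* therefore kept its sign and not its size.

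For *MIR390a* plus *MIR390b*, the difference of *hot3-2* and *hot3-3* from WT stayed between -0.70 and -0.45 under the 3 other library sizes. *HOT3-EYFP* against *hot3-2* was -0.30 with all counts and 0.52 with counts outside rDNA and organelles, so no direction is given for it. Of all features called in the comparison of the alleles with functional HOT3, 258 were higher and 270 lower with TMM, 365 and 147 with all counts, and 222 and 364 with counts outside rDNA and organelles.

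**Figure D5:**
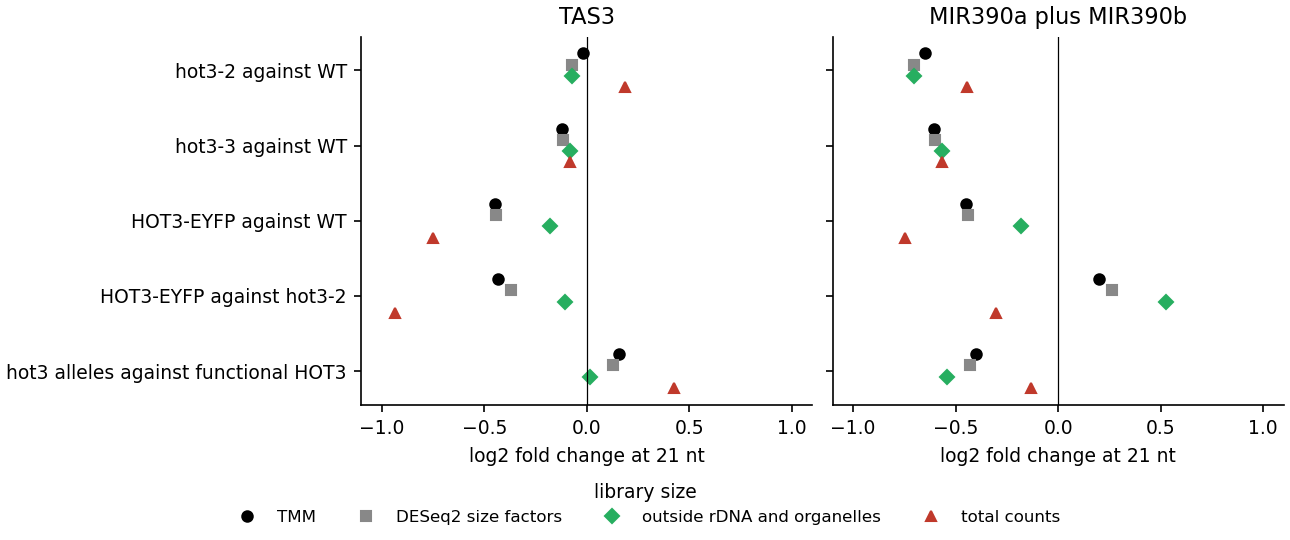
Log2 fold changes of *TAS3* and of *MIR390a* plus *MIR390b* at 21 nt in 5 comparisons under 4 choices of library size. Points of *hot3-3* against WT nearly coincide, and those of comparisons with *HOT3-EYFP* spread, from -0.94 to -0.11 for *TAS3* against *hot3-2*.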

How the data were processed

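sRNA-seq of 4 genotypes with 2 libraries each was used. The authors isolated RNA of 18 to 40 nt from a gel, made libraries with a NEBNext kit, trimmed adaptors and ran a pipeline of their own. GEO's processing notes name cutadapt 4.2, Bowtie, featureCounts 2.0.3 and DESeq2 1.34.0, with no role given. They deposited raw read counts, not normalized, per window of 100 bp and length from 18 nt to 26 nt, without strand. The alignment behind them, and the placement of reads with several matches, are not given in the sources used here. Windows matched TAIR10.1 on the nuclear chromosomes and the chloroplast (mitochondrion, 3670 windows against 3679). At the miRNAs checked that span a border, most 21-nt reads fell in the window of their leftmost base. The counts there and in the next window were 30603 against 10 for miR158a-5p, 5613 against 1 for miR858a and 15178 against 573 for miR167a-5p.

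Libraries were grouped by the labels' genotype. The members and gene lists were chosen with earlier results of these data known. edgeR's quasi-likelihood test with TMM was run once over all 8 libraries, with genotype as the only factor, on windows and 27 locus sums that had 10 or more counts in 2 or more libraries, and the code was tested on simulated data. Ratios and shares within libraries were compared by exact permutation of 4 against 4 libraries (smallest *p* 0.0286). Library pairs differed by more than sampling noise (chi-square per degree of freedom 3.56 to 5.46), so all were kept. Named genes were the members, 20 pathway genes, and the 5 genes closest in pattern to *TAS3* and to *MIR390a* plus *MIR390b*. Low counts limit precision: *MIR390b* had 89 to 201 reads of 21 nt per library. Alternatives were other library sizes, DESeq2, fits of only the genotypes compared, a block for the replicate number, stricter and looser filters, other limits of a call, reads of 20 nt to 22 nt, and leaving out each library. Tools were R 4.3.3, edgeR 4.0.16, DESeq2 1.42.0, Python 3.11.15, scipy 1.17.1 and pandas 2.3.3.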

Additional observations from a re-analysis of the deposited data

Results flagged for a closer look

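Within the *hot3* alleles, the 21-nt share of *TAS3* reads was 62.7% in *hot3-3* replicate 2 and 63.4% to 63.5% in the other 3 libraries, so that the lowest library's gap to its neighbour took 0.923 of the range of the 4. The distance is smaller than the Wilson 95% interval of that share (61.3% to 64.0%), and the limit this gap exceeded is exceeded by chance in about 1 in 20 groups.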

How the results depend on the processing

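Under the alternatives tried, 301 of 327 alternative values of the main results were counted as unchanged. For levels this meant the same direction and side of the limits, and for window counts a count of similar size. Ratios and shares kept direction and side of 0.05, or, without 1 library or against WT only, shifted by less than the SD within genotypes. Among *TAS3* levels, *hot3-2* against WT changed sign with all counts as library size (0.19) and with a filter of 20 counts in 4 libraries (0.11), and leaving out 1 library gave -0.14 to 0.024. *MIR390a* plus *MIR390b* in *HOT3-EYFP* against *hot3-2* was -0.30 with all counts. With adjusted P under 0.05 and no fold limit, both sums passed in *HOT3-EYFP* against WT (-0.45 each) and in the alleles against functional HOT3 (0.16 and -0.40), *TAS3* in *HOT3-EYFP* against *hot3-2* (-0.43), and the miRNA sum in *hot3-2* (-0.65) and *hot3-3* (-0.60) against WT. Under those limits 2, 2, 3 and 4 member windows were called in *hot3-2* and *HOT3-EYFP* against WT, *HOT3-EYFP* against *hot3-2*, and alleles against functional HOT3, beside 14.6%, 4.87%, 18.2% and 22.6% of all features. With the limits of a call and counts outside rDNA and organelles, the last comparison had 1, beside 586 of 4827 features. In *hot3-3* against WT the count was 2 with the 2-fold limit and an unadjusted P under 0.01 (edgeR), beside 522 of 4827 features. It was 0 with 20 nt to 22 nt summed, beside 407 of 16043 features. Against WT only, the alleles' 21-nt share of *TAS3* was lower by -4.14 points and the share in the tasiR-ARF windows by -2.75 points. Of single loci, sign changes were 0.14 and 0.061 (tasiR-ARF windows, *hot3-2* against WT, all counts and the stricter filter), -0.00404 (the same windows, alleles, counts outside rDNA and organelles), -0.27 (*MIR390a*), -0.41 (*MIR390b*) and -0.23 (5p windows) in *HOT3-EYFP* against *hot3-2* with all counts, and -0.036 (*MIR390b*, stricter filter). In the same comparison the 3p windows gave 0.23 with counts outside rDNA and organelles, 0.058 at 20 nt to 22 nt, and -0.39 to 0.19 when 1 library was left out, and *MIR390b* -0.17 to 0.35. For the alleles the 3p windows gave 0.093 with all counts. The cause of these shifts was not tested.

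Same-numbered libraries did not deviate together (correlations from -0.13 to 0.04 over 1449 windows), so the numbers were not taken as pairs. With a replicate block, 38 of 40 results kept their call. In *hot3-3* against WT, *MIR390b* (-1.15, edgeR adjusted P = 0.0171) was no longer called, and 0 member windows were. With the *hot3-2* numbers exchanged, an alternative chosen after seeing the data, 0 member windows were called in *hot3-2* against WT. Low counts limit the miR390 3p windows and the window of the 5′ site most.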

Other observations

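Over all lengths, the reads of the miR390 5p windows were 2.39 and 2.34 times those of the 3p windows in WT, 1.62 and 1.87 times in *hot3-2*, 1.82 and 2.14 times in *hot3-3*, and 2.59 and 2.24 times in *HOT3-EYFP*. The 4 allele libraries lay below the other 4. This ratio was chosen after its values were seen and was not tested.

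The division of reads between *MIR390a* and *MIR390b* was similar for both arms, although only the 3p sequences tell the genes apart. *MIR390a* had 2.12 and 2.75 times the 5p reads of *MIR390b* in WT, 3.06 and 2.60 times in *hot3-2*, 3.09 and 4.17 times in *hot3-3*, and 3.93 and 2.78 times in *HOT3-EYFP*. For the 3p reads it had 2.26 and 3.00 times in WT, 3.31 and 1.97 times in *hot3-2*, 3.00 and 4.15 times in *hot3-3*, and 3.31 and 2.26 times in *HOT3-EYFP*. How the placement of 5p reads bears on this was not tested.

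At 22 nt, *TAS3b* was higher in the alleles than in plants with functional HOT3 by a log2 difference of 1.97 (SE 0.29, edgeR adjusted P = 0.00016) and was called. *TAS3* at 22 nt gave -0.13 (SE 0.085, edgeR adjusted P = 0.337) in the same comparison, and *TAS3c* gave 0.33 (SE 0.44, edgeR adjusted P = 0.672).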
